A study of Mus musculus with 25 samples.

Results

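Glycolysis below glucose phosphate was followed through 10 enzyme genes in 2 mouse islet cell lines. The genes were Pfkl, Pfkm and Pfkp (phosphofructokinase), Aldoa and Aldoc (aldolase), Gapdh, Pgk1, Pgam1, and Eno1 and Eno2 (enolase). They were the RNA-seq rows with one of these symbols, 10 of 24439 genes, and the ATAC-seq peaks annotated to one of them as nearest gene, 33 of 65053 consensus peaks. A gene was tested if all 3 libraries of αTC1 or all 3 of βTC6 reached an FPKM (fragments scaled to transcript length and library size) of 1, which held for the 10 genes and for 12195 in all.

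The αTC1 line (alpha TC1 clone 6) models glucagon-producing alpha cells and the βTC6 line (beta-TC-6) insulin-producing beta cells. Each is a single tumour line, immortalised by the SV40 large T antigen. The lines were grown in different Dulbecco's Modified Eagle's Media. That of αTC1 held 10% serum, albumin, HEPES, non-essential amino acids and 2 g/L of added glucose, and that of βTC6 held 15% serum and 10% sodium pyruvate. The line and its medium cannot be told apart in any comparison below. RNA-seq covered 3 libraries of each line and ATAC-seq, which counts transposase insertions in open chromatin, covered 5 of each plus 9 mixtures of the lines in steps of 10% of cells, with 1 library for each mixture. In the labels nothing says whether replicates came from separate cultures, so p-values measure only the spread between these libraries.

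RNA-seq totals ran from 21795367 to 25876765 expected counts, and reads in peaks from 4397851 to 10374903 in the pure lines and from 5277983 to 7294832 in the mixtures. Defining markers followed the labels: 6 of 7 rows of alpha cell markers were higher in αTC1 and all 7 beta cell markers in βTC6. Gcg stood at 12112.7 to 14405.9 FPKM in αTC1 and at 172 to 267 in βTC6, Ins2 at no more than 0.64 in αTC1 and at least 23540.7 in βTC6, and Pdx1 was listed at 0 in αTC1. βTC6 also held 207 to 325 FPKM of Sst, the delta cell hormone, and 50.8, 3.7 and 23.4 of Ppy, the PP cell hormone. The other delta cell marker examined, Hhex, did not exceed 0.13 FPKM in any library. Of the 7 fibroblast, endothelial and leukocyte markers none exceeded 2.18 FPKM in any library, and of 6 acinar and ductal markers Sox9 alone passed 1 FPKM, at 4.05 to 4.42 in αTC1. αTC1 replicates 1 and 2 were far closer to each other than any other pair of a line: the chi-square of their counts per degree of freedom was 2.06, against 27.8 and 29.3 for their pairs with αTC1 replicate 3 and 17.3 to 38.4 for the βTC6 pairs. Nothing in the labels says whether replicates 1 and 2 were separate cultures, and with their counts summed into 1 library 8 enzymes were higher in αTC1 and 1 in βTC6, as below. In ATAC-seq the same chi-square was 2.05 to 2.16 within αTC1 replicates 1 to 3, and 10.0 to 11.3 between these and replicates 4 or 5. For βTC6 the values were 2.26 to 2.55 and 4.47 to 8.28, so the 5 ATAC-seq libraries of a line were not equally alike. In RNA-seq αTC1 replicate 3 was higher for every enzyme. Its part is given for the 10 enzymes where a call, a direction or a value over 1.5 times rests on it, and for some other genes. By FPKM, replicate 3 was also 2.34, 2.19, 2.12 and 1.66 times the mean of αTC1 replicates 1 and 2 for Ldha, Slc2a3, Hk2 and Gpi1. Their values below include it.

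Below glucose phosphate, phosphofructokinase adds the phosphate that commits sugar to glycolysis, and aldolase splits the product into triose phosphates. GAPDH, phosphoglycerate kinase, phosphoglycerate mutase and enolase then carry the triose to phosphoenolpyruvate, with NADH made at the GAPDH step and ATP at the kinase step. Several steps have isozymes with known tissue preferences: Pfkl in liver, Pfkm in muscle, Pfkp in platelets and brain, Aldoc in brain and Eno2 in neurons and endocrine cells. In beta cells, glucose metabolism through this pathway couples blood glucose to insulin release, and many of these genes are textbook targets of hypoxia-inducible factors.

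Transcripts of 8 of the 10 enzymes were higher in αTC1, by 1.55-fold for Pfkl to 4.69-fold for Eno2, and those of Gapdh were higher in βTC6. Aldoc did not pass the test. Without αTC1 replicate 3 Pfkl did not pass and Eno2 was 3.04-fold higher. For comparison, 36.0% of all genes tested passed as higher in αTC1 and 38.7% as higher in βTC6, at a false discovery rate (FDR) under 5% in edgeR's quasi-likelihood test. All log2 fold changes are given as βTC6 over αTC1. Their median over the 10 enzymes was -1.18, beside 0.01 over all genes. As in any bulk sample, fewer expressing cells and less RNA per cell cannot be told apart. With the additional threshold of an absolute log2 fold change over 2, Eno2 in αTC1 and Gapdh in βTC6 remained, where 4.08% and 10.2% of all genes passed in those directions, but Eno2 not without αTC1 replicate 3. Scaling to the spike-in RNAs instead left 6 enzymes higher in αTC1 and 1 in βTC6, where 11.8% and 17.5% of all genes passed. FPKM values of the lines did not overlap for 9 of the 10 genes, and 40.4% of all genes lay wholly higher in αTC1 and 37.3% wholly higher in βTC6.

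**Figure D1:**
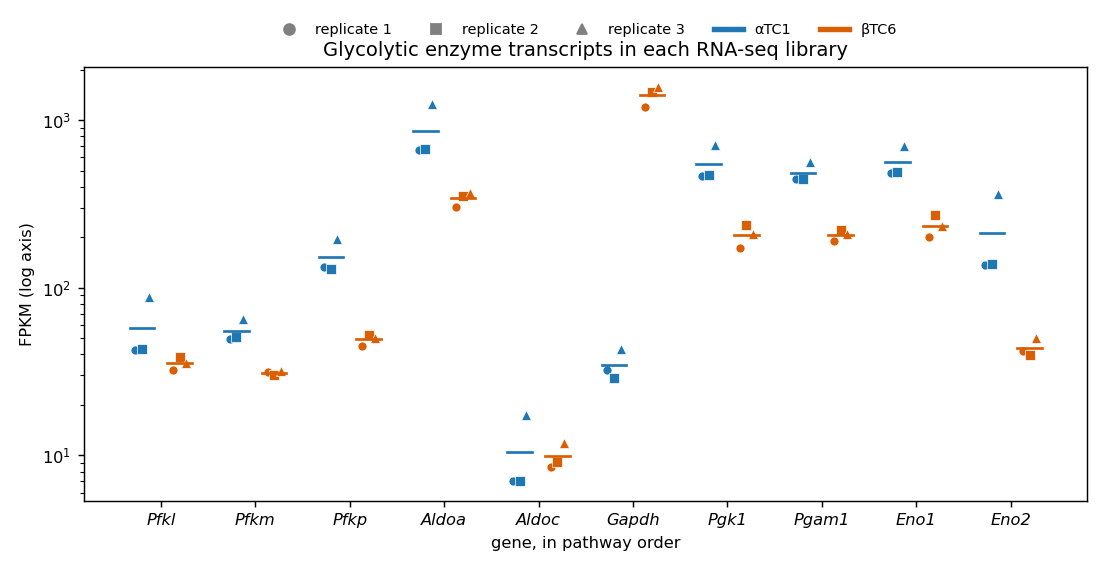
FPKM of the 10 enzyme genes (log axis) in each RNA-seq library, with symbols for replicates and bars for the mean of each line (n = 3). Gapdh lies at 29.0 to 42.85 in αTC1 and at 1195 to 1584 in βTC6, Aldoc overlaps between the lines, and αTC1 replicate 3 (triangle) is the highest αTC1 library for every gene.

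Among the phosphofructokinases, Pfkp carried the largest difference. Its FPKM (mm9 chr13:6579014-6648023, minus strand) was 134, 129.8 and 194 in αTC1 replicates 1 to 3, and 45.1, 52.4 and 50.4 in βTC6. Every αTC1 library lay above every βTC6 library, with a log2 fold change of -1.57 (SE 0.16, adjusted p = 1.92e-05). Pfkm (chr15:97923020-97962878) stood at 49.7, 50.9 and 65.2 in αTC1 and at 31.5, 30.2 and 31.8 in βTC6 (-0.77, SE 0.11, adjusted p = 0.000174, and 0.138 under spike-in scaling). Pfkl (chr10:77449692-77472828) stood at 42.5, 43.1 and 88.2 in αTC1, where replicate 3 was 2.06 times the mean of the others, and at 32.5, 38.9 and 35.5 in βTC6. Its log2 fold change of -0.63 (SE 0.25, adjusted p = 0.047) lost the threshold without αTC1 replicate 3, at -0.21 and an adjusted p of 0.0901, and without any of the βTC6 replicates (adjusted p = 0.0639 to 0.141). It also lost it under spike-in scaling (0.214), upper-quartile scaling (0.0564) and DESeq2 (0.121).

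The phosphofructokinase pool held more Pfkp in each αTC1 library than in any βTC6 library. Pfkp made up 57.7% ± 1.66 (SD, n = 3) of the summed FPKM of the 3 genes in αTC1 and 42.4% ± 0.954 in βTC6. Pfkl made up 21.1% ± 3.66 in αTC1 and 30.6% ± 1.19 in βTC6, and Pfkm 21.2% ± 2.13 and 26.9% ± 2.02. No share overlapped between the lines. In an exact permutation test (2-sided) each gave p = 0.1, which is the smallest p that 3 against 3 libraries allow.

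Aldoa (chr7:133938748-133944265) was the most abundant of the 10 transcripts in αTC1, though its range overlapped that of Eno1. It was measured at 662, 675 and 1251 FPKM in αTC1 and at 305, 351 and 367 in βTC6 (log2 fold change -1.29, SE 0.24, adjusted p = 0.000924). Without αTC1 replicate 3 the value was -0.91. Aldoc, the brain isozyme (chr11:78136470-78141283), was the least abundant in both lines, with 7.03, 7.08 and 17.5 FPKM in αTC1 and 8.54, 9.17 and 11.9 in βTC6. The βTC6 values lay between αTC1 replicates 1 and 2 on one side and replicate 3 on the other. Its log2 fold change of -0.04 (SE 0.36, adjusted p = 0.927) became 0.61 with an adjusted p of 0.00975 when αTC1 replicate 3 was left out. Its sign also turned, without passing, when βTC6 replicate 1 or 2 was left out, so no direction can be given for Aldoc. By share of aldolase FPKM, Aldoa made up 98.8% ± 0.188 (SD, n = 3) in αTC1 and 96.8% ± 0.199 in βTC6 and Aldoc 1.16% ± 0.192 and 2.79% ± 0.304 (exact permutation p = 0.1 for each).

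Gapdh (chr6:125111871-125116485), the enzyme that makes NADH, differed against the direction of the 8 others that passed. It was measured at 32.1, 29.0 and 42.85 FPKM in αTC1 and at 1195, 1480.5 and 1584 in βTC6, where it was the most abundant of the 10. In αTC1 it ranked 9, above Aldoc alone. The mean was 34.7 ± 7.26 (SD, n = 3) in αTC1 and 1420.0 ± 201 in βTC6, a ratio of 41.0 in FPKM. On counts the log2 fold change was 6.44 (SE 0.19, adjusted p = 1.32e-08), which is an 86.6-fold difference.

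The scales disagreed for Gapdh because FPKM divides each library's count by the transcript length that was estimated there. The length implied by count and FPKM was 678 ± 14.2 bases (SD, n = 3) for Gapdh in αTC1 and 1371 ± 12.2 in βTC6. For the other 9 enzymes the implied lengths of the lines differed by ratios of 0.99 to 1.02. Which transcript models the Gapdh reads were assigned to in each line was not examined.

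Gapdh also has many processed copies. In the gene models used here, 30 annotated genes shared at least 20 of its 50-base words, and together these held 78.7% of its words. None of the 30 exceeded 4.97 FPKM in any library. They took 15.8% to 18.3% of the combined counts in αTC1 and 0.488% to 0.661% in βTC6, and with their counts added to those of Gapdh the log2 fold change was 6.18. Reads assigned to transcripts outside the gene table were not analysed here.

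Pgk1, the first ATP-making enzyme (chrX:103382439-103399038), was measured at 463, 469 and 709 FPKM in αTC1 and at 172, 236 and 209 in βTC6 (log2 fold change -1.35, SE 0.19, adjusted p = 0.00016). Pgam1, which moves the phosphate of phosphoglycerate (chr19:41986361-41993154), stood at 444, 444 and 564 in αTC1 and at 191, 221 and 209.8 in βTC6 (-1.17, SE 0.12, adjusted p = 2.36e-05). Leaving out αTC1 replicate 3 gave -1.12 and -1.04. Every αTC1 library lay above every βTC6 library for both genes. Within each line the ranges of Eno1, Pgk1 and Pgam1 overlapped between neighbours in the order of means, at 561, 547 and 484 FPKM in αTC1 and at 234, 206 and 207 in βTC6. A copy of Pgam1, Gm8910, shared 67.6% of its words and took at most 0.209% of the combined counts.

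Both enolases were higher in αTC1, by 2.29-fold for Eno1 and 4.69-fold for Eno2. Eno1, the general form (chr4:149610830-149622988), stood at 487, 493 and 703 FPKM in αTC1 and at 199.98, 271 and 232 in βTC6 (log2 fold change -1.20, SE 0.17, adjusted p = 0.000198). Its copy Gm5506 shared 45.3% of its words and was given 17.8% to 19.0% of the combined counts in every library. The level of Eno1 therefore depends on how reads were divided between the pair, which was not tested. Summing the pair left the log2 fold change at -1.18. Eno2, the neuroendocrine form (chr6:124710071-124719691), was measured at 136, 139 and 364 FPKM in αTC1 and at 42.2, 39.5 and 50.2 in βTC6. αTC1 replicate 3 stood far above replicates 1 and 2, and the lines did not overlap. The log2 fold change was -2.23 (SE 0.36, adjusted p = 0.000376), and -1.60 (adjusted p = 8.23e-06) without αTC1 replicate 3, which is under the threshold of 2. Eno2 made up 25.9% ± 7.01 (SD, n = 3) of enolase FPKM in αTC1 and 15.5% ± 2.64 in βTC6, and the muscle form Eno3 0.344% ± 0.0271 and 2.62% ± 0.825 (exact permutation p = 0.1 for each). The Eno2 share was 21.7%, 21.9% and 34.0% in the αTC1 libraries, and the difference of -10.3 points became -6.29 without replicate 3.

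**Figure D2:**
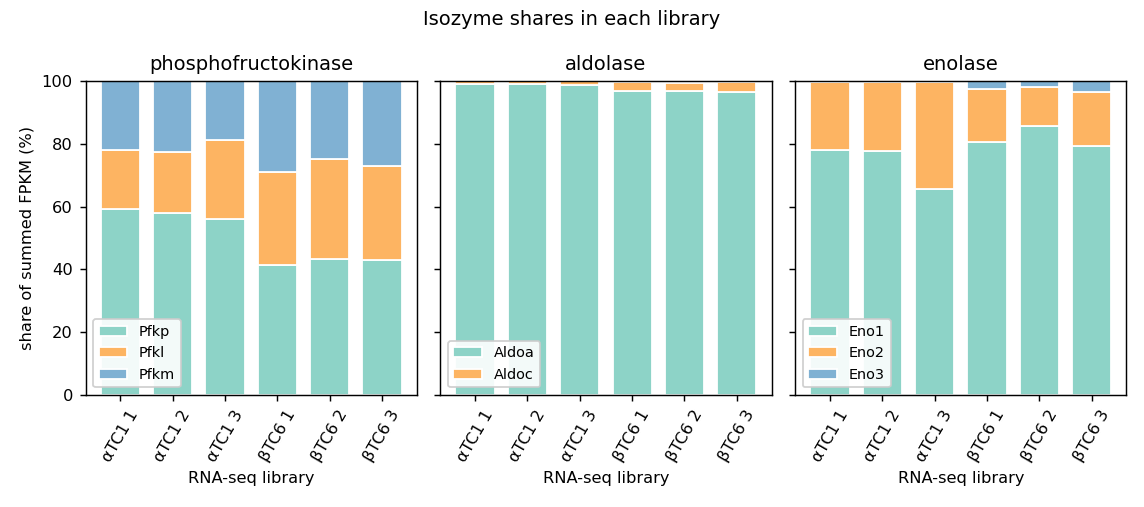
Share of each isozyme (%) in the summed FPKM of its family, 1 bar for each RNA-seq library, with the isozymes named in each legend. The Pfkp share averages 57.7% in αTC1 and 42.4% in βTC6, Aldoa stays above 96.5% in every library, and the Eno2 share of αTC1 replicate 3 (34.0%) exceeds that of the other 5 libraries.

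Summed over the 10 genes, the FPKM was 2979 ± 884 (SD, n = 3) in αTC1 and 2579 ± 308 in βTC6. Without Gapdh the sums were 2944 ± 877 and 1159 ± 116. Gapdh alone made up 1.18% ± 0.118 of the sum in αTC1 and 55.0% ± 1.72 in βTC6. The sums of the lines overlapped with Gapdh included and lay apart without it. Without αTC1 replicate 3 the αTC1 mean with Gapdh was 2468, below that of βTC6.

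αTC1 replicate 3 was higher than the mean of replicates 1 and 2 for all 10 enzymes. On the log2 CPM scale its excess ran from 0.35 for Pgam1 to 1.42 for Aldoc with a median of 0.59, beside a median of 0.00 over all genes tested. Among genes with a mean of at least 1 FPKM in αTC1, the excess was over 0.5 for 7 of the 10 enzymes and for 5.39% of all 11147. The lists of related genes differed in this. Of the 16 genes of the hypoxia list at that level, 11 exceeded 0.5, with a median of 0.59. That list held hypoxia-inducible genes outside glycolysis, and subunits or a regulator of the hypoxia-inducible factors. Of the 5 genes of glucose uptake and the first steps, 4 exceeded 0.5, with a median of 0.98. Below enolase 3 of 13 genes exceeded 0.5, with a median of 0.015, and of the genes that control phosphofructokinase 1 of 7, with a median of 0.03. Bnip3, a mitophagy receptor, was at 130, 125 and 338 FPKM in αTC1 replicates 1 to 3, and Egln1, an oxygen-sensing prolyl hydroxylase, at 42.8, 42.8 and 71.6. The spike-in RNAs fell into 2 sets across the lines: αTC1 replicate 3 went with βTC6 replicates 1 and 3 (correlation at least 0.994) and αTC1 replicates 1 and 2 with βTC6 replicate 2 (0.999 for each pair). A fit with that composition as a covariate left 8 enzymes higher in αTC1 and 1 in βTC6.

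Among the genes that bring glucose into the pathway, transporters of different affinity were split between the lines. Of the 7 tested genes of uptake and the first steps, 5 were higher in αTC1 and 2 in βTC6, beside 36.0% and 38.7% of all genes. The median log2 fold change of the 7 was -2.12. The glucose transporters Slc2a1 and Slc2a3 were higher in αTC1, at 43.2 ± 22.1 against 9.57 ± 1.02 FPKM (SD, n = 3) and at 31.8 ± 15.7 against 2.65 ± 0.21. The log2 fold change of Slc2a1 was -2.12, and -1.61 without αTC1 replicate 3. Hk1, a hexokinase of low Km, stood at 100.3 ± 16.5 FPKM in αTC1 and 9.62 ± 0.843 in βTC6, a log2 fold change of -3.24. Hk2 reached no more than 1 count in any βTC6 library and was at least 88.2-fold higher in αTC1, taking 3 counts in the library as the floor. Gpi1, which makes the substrate of phosphofructokinase, was also higher in αTC1 (-1.78). In βTC6 the low-affinity transporter Slc2a2 was at least 82.9-fold higher, with at most 3 counts in an αTC1 library.

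Of the other isozymes of the same steps, 4 of 8 passed the filter. Tpi1, which interconverts the trioses made by aldolase, was higher in αTC1, at 1041 ± 247 against 209.8 ± 28.2 FPKM (SD, n = 3, log2 fold change -2.24). Eno3 was higher in βTC6 (1.47). Bpgm, the bisphosphoglycerate mutase, had a log2 fold change of -0.11 and did not pass. Among the 7 genes that set phosphofructokinase or run the reverse reaction, 3 were higher in αTC1 and 1 in βTC6, beside 36.0% and 38.7% of all genes. Under spike-in scaling, where fewer of all genes passed, as given above, the counts were 3 and 0. The gluconeogenic Fbp1 was at 31.1 ± 1.98 FPKM in αTC1 and 1.01 ± 0.125 in βTC6, a log2 fold change of -4.88, and Fbp2 at 2.81 ± 0.254 and 0.477 ± 0.227 (-2.49). Pfkfb3, which makes the activator fructose 2,6-bisphosphate, was at 5.52, 5.78 and 17.1 FPKM in αTC1 and at 3.15, 3.03 and 2.89 in βTC6 (-1.59, and -0.88 without αTC1 replicate 3).

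Below enolase, 9 of 14 tested genes were higher in αTC1 and 3 in βTC6, beside 36.0% and 38.7% of all genes. The median log2 fold change of the 14 was -0.60. Under spike-in scaling the counts were 5 and 2, with 11.8% and 17.5% of all genes. Pkm, the pyruvate kinase of growing cells, was the most abundant and had a small difference (log2 fold change -0.52), whereas the liver form Pklr was at least 49.0-fold higher in βTC6 at 2.65 FPKM. Lactate dehydrogenase was higher in αTC1, and of 2 lactate transporters 1 passed. Ldha stood at 369 ± 197 FPKM in αTC1 and 43.5 ± 18.0 in βTC6 (-3.02), Ldhb at 66.2 ± 8.58 and 9.09 ± 3.51 (-2.81), and the monocarboxylate transporter Slc16a1 at 19.1 ± 0.656 and 1.58 ± 0.332 (-3.54). The transporter Slc16a3 did not pass (-0.81, adjusted p = 0.104, and -0.04 without αTC1 replicate 3). Pdk2, an inhibitor of pyruvate dehydrogenase, was higher in αTC1 (-2.44). Of the dehydrogenase subunits, Pdhb was higher in βTC6 (1.11) and Pdha1 and Dlat in αTC1 (-0.38 and -0.44). Of the 17 tested genes of the hypoxia list, 13 were higher in αTC1 and 2 in βTC6, beside 36.0% and 38.7% of all genes. The median of the list was -0.87. It also holds Hif1a, Epas1, Arnt and Vhl, which are subunits or a regulator of hypoxia-inducible factors. For each of these, every αTC1 library lay above every βTC6 library. Without αTC1 replicate 3 the counts of the list were 13 and 3, and under spike-in scaling 8 and 2, with the same 11.8% and 17.5% of all genes. Bnip3, Kdm3a, Higd1a and Epas1 passed the fold threshold in αTC1 (-2.31, -2.23, -3.26 and -2.66), Bnip3 not without αTC1 replicate 3 (-1.69), and the prolyl hydroxylase Egln3 passed it in βTC6 (3.46). Vegfa, a common hypoxia target, had a log2 fold change of 0.07 and did not pass.

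The 33 ATAC-seq peaks were spread unevenly, with 16 at Pfkp, 4 at Pfkl, 3 at Gapdh, 2 each at Eno1, Eno2 and Pgk1, and 1 each at Aldoa, Aldoc, Pfkm and Pgam1. By limma on log2(TMM-normalized read count + 1), 13 were more open in αTC1 and 10 in βTC6, against 38.1% and 39.9% of all peaks. With an absolute log2 fold change over 2, 1 remained in αTC1 and 5 in βTC6, where 5.38% and 12.9% of all peaks remained. Values called reads are normalized ones unless said to be whole reads. Under quantile normalization on top of TMM the split was 2 and 4, and over all peaks the βTC6 share of such calls went from 70.6% to 52.5%. Values of the lines did not overlap at 20 of the 33 peaks, and at 63.9% of all peaks.

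Peaks at the start sites and peaks farther away were counted apart. Of the 13 peaks within 2 kb of a start site, 9 were more open in αTC1 and 1 in βTC6, with a median log2 fold change of -0.57. Over all 14582 peaks within 2 kb the shares were 52.3% and 23.4%, with a median of -0.31. Of the 20 peaks farther away, 4 were more open in αTC1 and 9 in βTC6, where 34.0% and 44.6% of all 50471 such peaks were. Distances are those of the deposited annotation, whose starts can differ from the outer end of the gene spans printed above. The peaks called start-site peaks of Gapdh, Aldoa and Pfkm lie wholly inside those spans, at least 390, 752 and 15608 bp from the outer end, with their middles 11, 231 and 192 bp from the start of another GENCODE transcript of the gene.

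**Figure D3:**
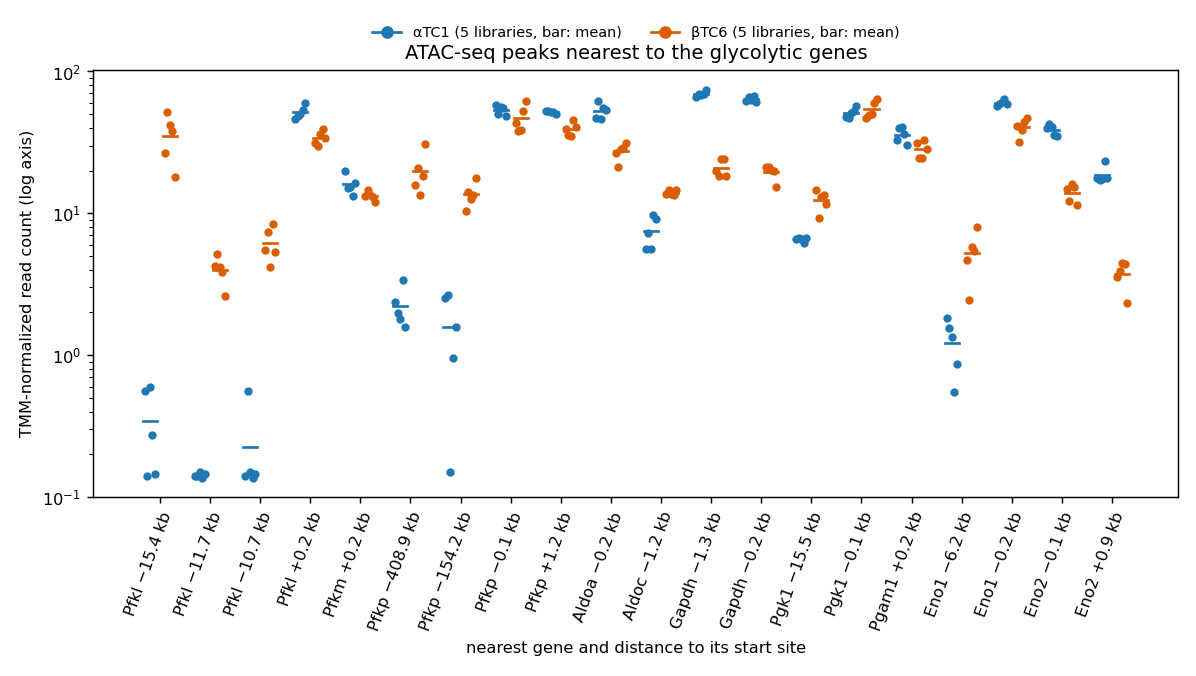
TMM-normalized read count (log axis) of 20 peaks nearest to the enzymes, with points for the 5 libraries of each line and bars for the mean. Peaks by the start sites of Gapdh and Eno2 lie higher in αTC1, and the distal peaks of Pfkl lie below 1 normalized read in αTC1 and at 2.63 to 51.9 in βTC6.

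The Gapdh start region was more open in αTC1, where its RNA was low. The peak listed at 180 bp upstream (mm9 chr6:125115466-125116095, overlapping Gapdh exons) had 61.8, 66.3, 62.8, 66.6 and 61.0 normalized reads in the αTC1 libraries and 21.2, 21.3, 20.1, 19.8 and 15.4 in the βTC6 libraries. The lines were far apart, with a log2 fold change of -1.66 (SE 0.10, adjusted p = 1.19e-11). The peak listed at 1309 bp upstream, which spans the outer end of the gene, held 69.5 ± 3.09 (SD, n = 5) and 20.9 ± 2.98 (-1.69). A farther Gapdh peak, at 7038 bp and inside an intron of Ncapd2, went the same way (-1.68, and -0.82 with a pseudocount of 5). As measured, RNA and accessibility of Gapdh differed in opposite directions, in separate sets of libraries. The RNA value rests on how reads were assigned to Gapdh transcripts, which was not examined.

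Eno2 held the single peak that passed the fold threshold in αTC1. Its start-site peak, the one 100 bp upstream (mm9 chr6:124719075-124720178, overlapping exons of Eno2 and its neighbour Lrrc23) had 40.1, 42.4, 40.9, 35.8 and 34.8 reads in αTC1 and 14.8, 12.3, 16.2, 15.3 and 11.5 in βTC6 (log2 fold change -1.41, SE 0.11, adjusted p = 9.45e-10). A peak 946 bp inside the gene held 18.7 ± 2.67 (SD, n = 5) and 3.74 ± 0.864 (-2.07, SE 0.18, adjusted p = 1.71e-09). Its log2 fold change missed the threshold of 2 without αTC1 replicate 4 (-1.99) or βTC6 replicate 5 (-1.95), or with a pseudocount of 5 (-1.44).

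Gapdh and Eno2 lie on chromosome 6, and other features near them were also lower in βTC6. Over the 4291 peaks of chromosome 6 the median log2 fold change was -0.79, and over the 79 to 80 peaks of other genes within 1 Mb of these starts it was -1.21 to -1.22. The RNA of 34 other tested genes within that window had a median of -0.69. The peaks at both genes lay beyond these medians, and the part of the region in the result was not tested. For the other 8 enzymes the median of nearby peaks ran from -0.60 at Aldoa to 0.60 at Pgk1.

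**Figure D4:**
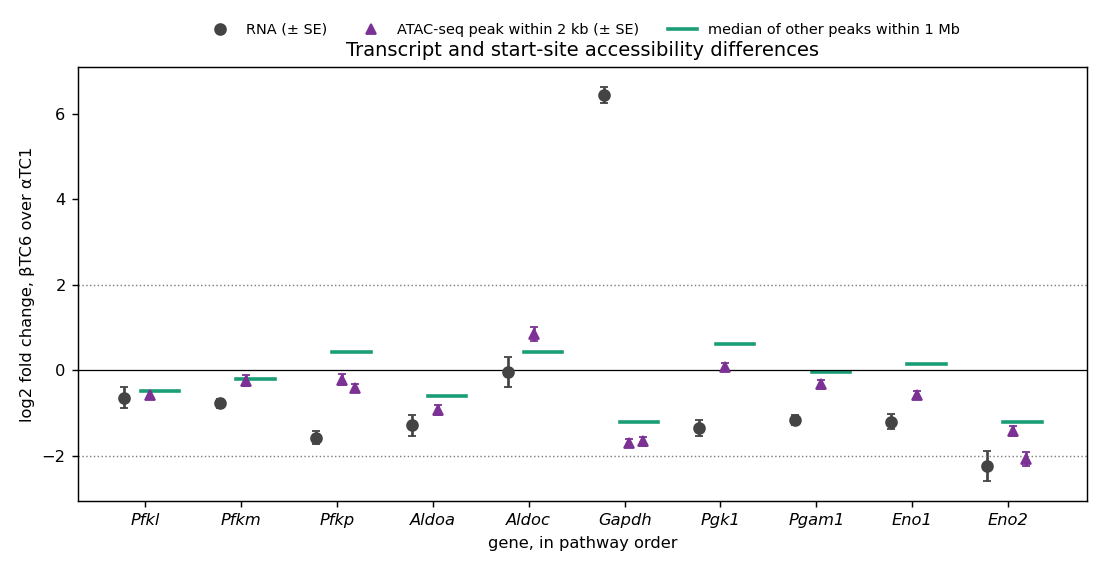
Log2 fold change (βTC6 over αTC1) of the RNA of each enzyme (circle), of its ATAC-seq peaks within 2 kb (triangles), both with SE, and the median of other peaks within 1 Mb (green line); dotted lines mark 2 and -2. RNA and start-site peaks lie on the same side of 0 for Pfkl, Pfkm, Pfkp (whose start-site peak turns to 0.19 under quantile normalization), Aldoa, Pgam1, Eno1 and Eno2, and on opposite sides for Gapdh, Aldoc and Pgk1, where Aldoc's RNA (-0.04) and Pgk1's peak (0.08) did not pass.

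At the remaining start sites differences were smaller. Aldoa's peak (mm9 chr7:133942485-133943513) held 52.8 ± 6.39 reads in αTC1 and 27.3 ± 3.70 in βTC6 (SD, n = 5, log2 fold change -0.93, adjusted p = 2.14e-07). The peaks of Pfkl (-0.58), Eno1 (-0.57), Pgam1 (-0.33) and of Pfkp at 1200 bp inside the gene (-0.40) also passed as more open in αTC1, but under quantile normalization these 4 missed the threshold, with -0.21, -0.17, -0.04 and -0.01. The start-site peaks of Pfkm (-0.25, adjusted p = 0.0886) and Pfkp (-0.21, adjusted p = 0.109) did not pass. Under quantile normalization Pfkm passed (-0.32, adjusted p = 0.0341) and Pfkp turned to 0.19, and Pfkp passed with replicates 1 to 3 alone (-0.45, adjusted p = 0.000486) or without βTC6 replicate 5 (-0.32, adjusted p = 0.00735). Pgk1's start-site peak held 50.9 ± 3.86 in αTC1 and 54.1 ± 7.63 in βTC6 (SD, n = 5, 0.08, adjusted p = 0.476), while its RNA was 2.55-fold higher in αTC1. It passed as more open in βTC6 (0.49) under quantile normalization. Aldoc's peak held 5.60, 7.30, 5.56, 9.69 and 9.10 reads in αTC1 and 13.8, 14.6, 13.6, 13.4 and 14.6 in βTC6, the single start-site peak that passed as more open in βTC6 (0.86, adjusted p = 8.19e-05, and 0.53 with an adjusted p of 0.123 for replicates 4 and 5 alone).

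Promoter sequence was read to see which enzymes carry the core of the hypoxia response element. The window was 250 bases before to 50 after each start in RefSeq's GRCm38.p6 table, both strands, and the cores were ACGTG and GCGTG. All 10 symbols matched, with 18 windows, since several genes have more than 1 start and their windows overlap. A core was present in 15 of the 18 windows and for 9 of the 10 genes, the exception being Eno2. Among all 32851 promoter windows of that table, a core was held by 43.8%. The E-box CACGTG, which contains ACGTG on both strands, was in 1 of the 18 and in 7.15% of all, the GC box GGGCGG in 9 and 35.7%, CCAAT in 7 and 37.4%, and TATAAA in 1 and 13.6%. A match describes letters, not a bound site.

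Shown are the 250 bases before the start of Pgk1, whose start-site peak did not pass the test, of Pgam1, and of Gapdh, whose peak and RNA went apart, each along its gene's strand with hypoxia cores of either strand in capitals. They lie at GRCm38 chrX:106186850-106187099 (+), chr19:41911621-41911870 (+) and chr6:125165774-125166023 (-).
Pgk1: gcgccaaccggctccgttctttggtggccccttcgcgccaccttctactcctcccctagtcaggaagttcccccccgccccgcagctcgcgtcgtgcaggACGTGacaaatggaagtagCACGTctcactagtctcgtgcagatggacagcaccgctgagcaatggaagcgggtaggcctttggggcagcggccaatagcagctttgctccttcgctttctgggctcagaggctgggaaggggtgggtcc
Pgam1: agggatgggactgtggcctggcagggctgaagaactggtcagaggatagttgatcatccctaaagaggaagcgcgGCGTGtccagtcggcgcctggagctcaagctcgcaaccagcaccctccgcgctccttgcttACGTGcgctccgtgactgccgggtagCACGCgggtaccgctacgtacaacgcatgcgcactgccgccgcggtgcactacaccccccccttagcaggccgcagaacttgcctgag
Gapdh: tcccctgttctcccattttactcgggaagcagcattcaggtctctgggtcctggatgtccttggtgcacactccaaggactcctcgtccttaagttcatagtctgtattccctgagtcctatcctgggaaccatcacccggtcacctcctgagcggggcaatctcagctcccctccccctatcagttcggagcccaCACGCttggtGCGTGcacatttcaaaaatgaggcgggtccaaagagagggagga

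The printed stretch of Pgk1 holds 2 cores, that of Pgam1 3 and that of Gapdh 2. No annotated exon overlapped these stretches in mm9.

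Away from the start sites, the gene with the largest differences was Pfkl. Between Pfkl and its neighbour Aire, in sequence without an annotated gene, lay 3 peaks at 10682, 11656 and 15378 bp upstream, all more open in βTC6. The farthest (mm9 chr10:77487500-77488337) had 0.56, 0.14, 0.60, 0.27 and 0.14 normalized reads in αTC1, which is at most 4 whole reads, and 26.4, 51.9, 41.8, 38.1 and 18.1 in βTC6. Its log2 fold change was 4.68 (SE 0.25, adjusted p = 2.55e-12), the largest of the 33. With so few αTC1 reads its size depends on the pseudocount, at 2.85 with 5, 5.36 with 0.5 and 6.60 by edgeR on whole reads. The peak at 10682 bp had 0.227 ± 0.187 and 6.18 ± 1.70 (SD, n = 5, 2.53, and 1.08 to 4.65 under these settings), with at most 4 whole reads in an αTC1 library. The peak at 11656 bp had 1 whole read in every αTC1 library, the lowest value the table holds (no peak is listed at 0), and 4.01 ± 0.905 in βTC6, so that it was at least 8.90-fold higher, counting 3 whole reads as the floor. At the same time Pfkl's own start was less open in βTC6 and its RNA lower (-0.63), and the nearer gene to the 3 peaks was Aire, 4430 to 9343 bp away.

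The central 300 bases of the largest Pfkl peak and of the largest distal Pfkp peak are shown on the mm9 plus strand, at chr10:77487769-77488068 and chr13:7056738-7057037. Capitals mark, on either strand, the homeodomain core TAATTA, the forkhead core TAAACA, and an E-box read by basic helix-loop-helix factors, CAGCTG.
Pfkl: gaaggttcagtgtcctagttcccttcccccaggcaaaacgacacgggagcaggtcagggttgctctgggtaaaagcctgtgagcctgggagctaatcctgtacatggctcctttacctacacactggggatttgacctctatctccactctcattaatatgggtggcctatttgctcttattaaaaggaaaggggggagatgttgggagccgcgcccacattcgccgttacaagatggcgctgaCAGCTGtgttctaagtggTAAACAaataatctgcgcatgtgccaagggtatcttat
Pfkp: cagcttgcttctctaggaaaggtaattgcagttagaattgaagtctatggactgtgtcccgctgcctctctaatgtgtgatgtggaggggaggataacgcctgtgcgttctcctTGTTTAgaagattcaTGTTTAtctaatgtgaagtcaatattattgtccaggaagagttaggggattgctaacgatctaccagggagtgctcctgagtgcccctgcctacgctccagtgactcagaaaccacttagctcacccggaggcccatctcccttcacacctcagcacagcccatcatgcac

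Over the central 300 bases of all 65053 peaks, the homeodomain core was held by 9.86%, the forkhead core by 24.6% and the E-box by 23.8%, and over the 33 peaks the counts were 2, 10 and 3. The window of the Pfkl peak held 1 forkhead core and 1 E-box, and that of the Pfkp peak 2 forkhead cores.

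The Pfkl peaks lie in repeated sequence. Each of the 276 words of 25 bases in the printed Pfkl window occurred more than once in mm9, with a median of 1604 occurrences on both strands. The same held for all 276 words of the peaks at 11656 and 10682 bp, with medians of 212 and 777. In the printed Pfkp window every word occurred once, as it did in the windows at the start sites of all enzymes except Eno2 (4 words repeated) and Pgam1 (185 words repeated, at most 5 occurrences). By its letters the printed Pfkl stretch resembles the long terminal repeat of intracisternal A particle elements, retroelements with many copies in the mouse, though no repeat annotation was used here. Of 62 other peaks whose windows shared at least 20 of its words, 14 were more open in βTC6, 1 in αTC1 and 47 did not pass. Of all peaks 39.9% and 38.1% passed in these directions, and the median log2 fold change of the 62 was 0.001. The values of the distal Pfkl peaks therefore rest on how reads from near-identical copies were placed, which was not tested, and whether either line carries this copy was not examined.

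Pfkp had 14 peaks beyond 2 kb of its start, as far as 766040 bp away, in a stretch with few annotated genes. Of these, 3 were more open in αTC1, 4 in βTC6 and 7 did not pass, where 34.0% and 44.6% of all 50471 peaks beyond 2 kb were more open in αTC1 and βTC6. The peak 408918 bp upstream (mm9 chr13:7056490-7057285) had 2.38, 1.97, 1.80, 3.41 and 1.59 reads in αTC1 and 15.8, 20.7, 13.4, 18.4 and 30.9 in βTC6 (log2 fold change 2.66, SE 0.22, adjusted p = 1.33e-09). The peak 154181 bp upstream went from 1.58 ± 1.06 to 13.7 ± 2.71 (SD, n = 5, 2.61). With a pseudocount of 5 they were at 1.75 and 1.51. Opposite to them, the peak 726661 bp upstream held 40.3 ± 13.7 in αTC1 and 9.69 ± 1.59 in βTC6 (-1.91), and an intronic peak 21811 bp inside the gene 5.88 ± 1.32 and 1.52 ± 0.353 (-1.44, and -0.73 with a pseudocount of 5). For every peak upstream of Pfkp by more than 20 kb the closest annotated coding gene was another, Gm10029 or Gm9742, so the link to Pfkp rests on the deposited annotation. The peaks 6200 bp upstream of Eno1 and 15543 bp upstream of Pgk1 were more open in βTC6 (1.46, with 0.70 at a pseudocount of 5, and 0.81), against the direction of their RNA, and the closest coding gene to the latter was Tlr13, 10672 bp away.

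The mixtures measured the same peaks in libraries that had no part in the comparison of the pure lines. Along the βTC6 fraction, 11 of the 33 peaks rose and 8 fell at an FDR under 5% in limma, against 33.5% and 24.8% of all peaks, and 28 of the 33 slopes had the sign of the difference between the pure lines, as did 88.9% of all peaks. Gapdh's peak at 1309 bp went from 58.5 reads at 10% βTC6 to 48.2 at 50% and 29.6 at 90%, a slope of -1.31 per 100% βTC6 on the log2 scale (SE 0.20, adjusted p = 3.11e-05). Eno2's peak inside the gene held 10.8, 9.06 and 3.77 in these mixtures (-2.04, adjusted p = 0.00041), but 16.5 and 17.0 at 20% and 30% βTC6, so the fall was not steady. Pgk1's start peak held 55.9, 57.1 and 63.2 (0.08, adjusted p = 0.728).

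Pfkl's peak at 15378 bp rose from 1.83 reads at 10% βTC6 to 11.0 at 50% and 15.1 at 90% (2.55, SE 0.48, adjusted p = 0.000229). In all 9 mixtures it lay below the line between the pure means, at a median of 0.616 of it. Pfkp's peak at 154181 bp lay above that line in all 9, at a median of 1.55 times, with 4.06, 15.5 and 19.4 reads in those mixtures (2.25, adjusted p = 2.8e-05), and its peak at 408918 bp in 8 of 9 (2.82, adjusted p = 2.12e-06). The start-site peaks of Aldoa (-0.49, adjusted p = 0.0597) and Aldoc (1.05, adjusted p = 0.0623) had slopes in the direction of the pure lines that did not pass, and those of Eno1, Pgam1 and Pfkm had adjusted p-values of 0.275 to 0.935.

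**Figure D5:**
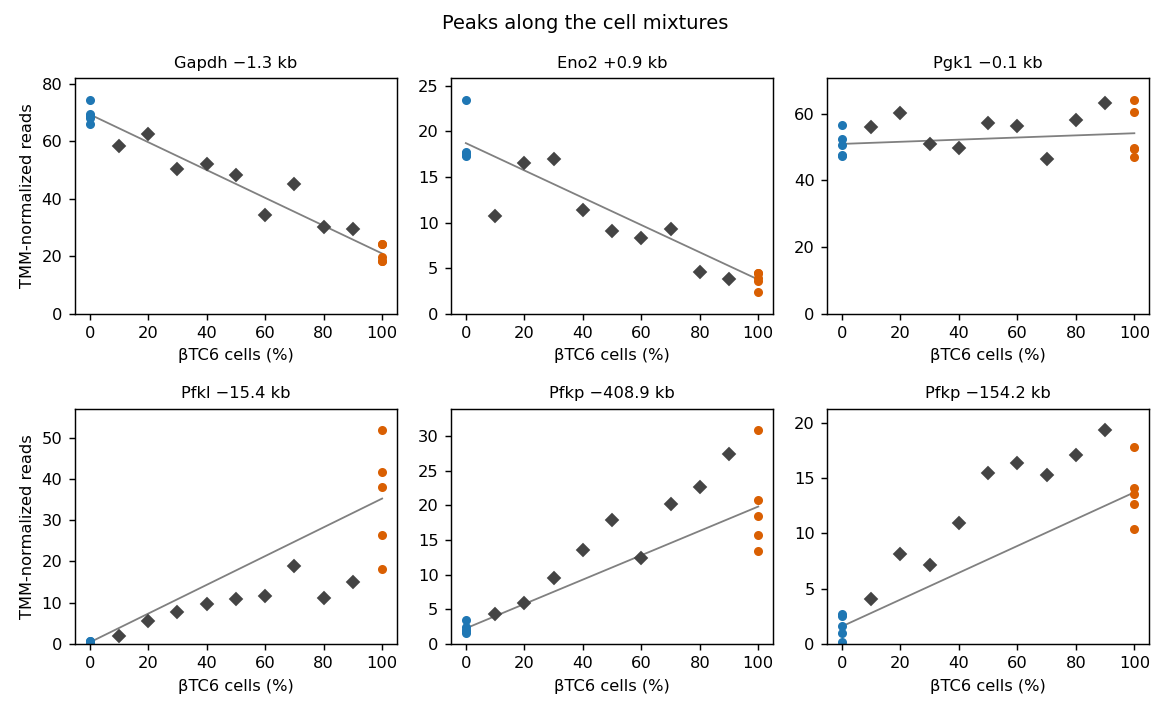
TMM-normalized reads of 6 peaks against the percentage of βTC6 cells: diamonds are the 9 mixtures (1 library each), points at 0% and 100% the 5 pure libraries of αTC1 and βTC6, and the grey line joins the pure means. Gapdh and Eno2 fall with the βTC6 share, Eno2 from its highest mixtures at 20% and 30%, Pgk1 is flat, the Pfkl peak lies below the line in 9 of 9 mixtures and the Pfkp peak at 154181 bp above it in 9 of 9.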

How the data were processed

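RNA-seq was measured in 3 libraries of each line and ATAC-seq in 5 of each and 9 mixtures. Per the labels and the study's methods, reads were aligned to mm9. The deposited RNA-seq table holds expected counts and FPKM that the authors made with RSEM 1.2.12, with spike-in controls (92 rows, 0.436% to 0.971% of counts, left out of library sizes). The deposited ATAC-seq signal is a TMM-normalized read count in consensus peaks, made by the authors with MACS2 2.1.0 and DiffBind 2.2.5; 100% of the values were whole multiples of 1 read within 0.01. The submitters' processing notes also name Trimmomatic 0.32, BWA 0.7.9a, Picard 1.95, Bowtie2 and Trim Galore.

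Expected counts were rounded and tested by edgeR 4.0.16 (quasi-likelihood, TMM), 3 against 3. ATAC-seq was tested by limma 3.58.1 (with a mean-variance trend) on log2(value + 1), 5 against 5, and along the βTC6 fraction of the mixtures. P-values were adjusted by Benjamini-Hochberg over all features. A gene or peak passed the test at an FDR under 5%, with |log2 fold change| > 2 as the stricter rule of the study. Isozyme shares were compared by 2-sided exact permutation tests. Floors of 3 counts cover counting error only. The fits were tested on simulated data.

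Named were the 10 enzymes, genes of the other lists past the stricter rule and up to 4 others of each list with the highest mean FPKM, and peaks within 2 kb of a start site, past the stricter rule or with the largest difference of their gene (20 in all). The other peaks given values, at Pfkp and 7038 bp from Gapdh, and the genes Slc16a3 and Dlat were chosen after their values were seen. The enzymes and the lists were chosen with earlier results of these data known. Word counts in the genome, the copies of each enzyme, and peak motifs were looked at after the data were seen. Protein sequences were not used here, and a few list members are not reported here. DESeq2 1.42.0, other scalings, filters, pseudocounts and left-out libraries were alternatives.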

Additional observations from a re-analysis of the deposited data

Results flagged for a closer look

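Single libraries stood apart at 4 of the 20 peaks examined by library (40 groups of 5, where chance flags about 1 in 20 groups by Dixon's test of the gap to the nearest library). At the peak 946 bp inside Eno2, αTC1 replicate 4 held 23.5 normalized reads and the other αTC1 libraries 17.3 to 17.8. At the start-site peak of Gapdh, βTC6 replicate 5 held 15.4 and the others 19.8 to 21.3. At the Pfkl peak 10682 bp upstream, αTC1 replicate 2 held 0.562, which is 4 whole reads, and the others 1 whole read each. At the Pgk1 peak 15543 bp upstream, αTC1 replicate 4 held 6.14 and the others 6.58 to 6.74. In each case the lines stayed apart.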

How the results depend on the processing

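Most values kept their direction and call under the alternatives. For the single genes and peaks, 599 of the values recomputed kept both, 25 lost the call, 7 gained it, 11 changed sign and 1 moved. For RNA, leaving out 1 replicate gave 7 to 8 enzymes higher in αTC1, 1 to 2 in βTC6 and 0 to 1 past the fold threshold in αTC1, with the extremes of 2 and 0 without αTC1 replicate 3. Aldoc changed sign under the replicate block (0.10) and without αTC1 replicate 3 (0.61), βTC6 replicate 1 (0.04) or βTC6 replicate 2 (0.000276), and its values without 1 library ran from -0.28 to 0.61. Spike-in scaling left 6 enzymes higher in αTC1, with 11.8% of all genes. For ATAC-seq, requiring a mean of at least 5 normalized reads left 23 of the 33 peaks and 5 of them more open in βTC6, 3 past the fold threshold (35.1% and 14.7% of all peaks tested); the 5 other calls in βTC6 were of peaks that this filter removed. A pseudocount of 5 left 1 and, in αTC1, 0 past it (2.56% and 1.26% of all peaks), where quantile normalization gave 2 (7.88%), edgeR on whole reads 3 (8.82%) and replicates 1 to 3 alone 0 (4.82%). Leaving out 1 library gave 9 to 11 and 12 to 16 peaks more open in βTC6 and αTC1, and 5 and 0 to 1 past the fold threshold. The start-site peak of Pfkp changed sign under quantile normalization (0.19) and with replicates 4 and 5 alone (0.14). Without the 10% and 90% mixtures 5 slopes rose and 4 fell, against 23.4% and 14.7% of all peaks. Of the slopes of the 20 named peaks on the log scale, those that changed sign were Eno1 at 201 bp (0.10), Pfkm (-0.26) and Pfkp at 1200 bp (0.15) under quantile normalization, and Pfkm (-0.13) and Pgk1 at 120 bp (-0.084) without the end mixtures. Without the log the slope of Pfkm was -0.11 reads. The Aldoa share difference of -2.08 points was -2.59 from expected counts and -1.64 with Aldoa and Aldoc alone as the family. Apart from the filter, the cause was not tested in these cases.

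Replicate numbers shared by the lines did not pair the libraries, since the correlations of deviations were under 0.1. With the replicate block 8 enzymes were higher in αTC1 and 1 in βTC6, and 13 and 10 peaks, 1 and 5 past the fold threshold. Precision is limited by 3 RNA-seq libraries a line and by counts of 1 to 4 whole reads in αTC1 at the distal Pfkl peaks.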
